A study of Mus musculus with 12 samples.

Results

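The 10 genes described here encode the best-known readers, writers and erasers of N6-methyladenosine (m6A), a methyl mark on adenosines of messenger RNA. They were taken by symbol from a table of 11581 genes measured in unstimulated CD8 T cells, and all 10 have a row. The readers were Ythdf1, Ythdf2, Ythdf3, Ythdc1 and Ythdc2, the writers Mettl3, Mettl14 and Wtap, and the erasers Alkbh5 and Fto. The 3 scurfy libraries came from CD8 T cells of chimeric C57BL/6 J mice that had received OT-1 Foxp3Scurfy CD45.1+/2+ marrow together with CD45.2+ marrow. The 3 wild-type libraries came from the same kind of chimera made with OT-1 Foxp3wt marrow. The scurfy allele disrupts Foxp3, on which regulatory T cells depend, and OT-1 cells carry a transgenic receptor for an ovalbumin peptide. All cells were taken 2 months after reconstitution of CD45.2+ hosts, and both groups shared the transgenic receptor. The labels do not say whether a library is 1 animal or a pool, so p-values measure the spread between libraries, which may be technical. The labels give the cells as purified CD8 cells and do not say whether cells of the CD45.2+ donor were removed. The design text speaks of OT-1 cells. The libraries of peptide-stimulated cells were not analysed here.

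The mark is placed in the nucleus by a complex in which METTL3 is the catalytic subunit, METTL14 helps to hold the RNA and WTAP brings the pair to nuclear speckles. ALKBH5 and FTO remove methyl groups from RNA by oxidation. Proteins with a YTH domain bind the mark: YTHDC1 in the nucleus, where it acts in splicing and export, and YTHDF1, YTHDF2, YTHDF3 and YTHDC2 in the cytoplasm. YTHDF2 is best known for handing methylated transcripts to the CCR4-NOT deadenylase for decay. In mouse T cells the pathway is known for keeping SOCS transcripts, which restrain cytokine signalling, short-lived.

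Values are the deposited normalized counts, which are reads divided by a factor per library. The 6 libraries held 8852518 to 23149523 reads over the table, the deepest being wild-type library 2. Every pair of libraries of a group differed by more than sampling noise. Mean chi-square per gene was 6.86 between scurfy libraries 1 and 2. It was 25.7 and 21.6 between these and scurfy library 3, and 15.2 to 32.4 between wild-type libraries. On the first principal component (46.4%) scurfy library 3 lay at -31.4, scurfy libraries 1 and 2 at -9.11 and -12.0, and wild type at 12.6 to 24.4. Scurfy library 3 thus stood apart from the other scurfy libraries over the whole table. Foxp3 has no row, and no transcript was available to check the genotype labels. Cd8a was at 6873 to 8310 normalized counts and Cd8b1 at 21344 to 21911 in all libraries, and all 14 T cell identity genes sought had a row. Of these 14, Cd3d and Cd2 rose (log2 fold changes 0.76 and 0.43, limma adjusted p = 0.00551 and 0.0376), Cd28 fell (-0.67, 0.00776) and 11 did not pass. The Cd3d and Cd28 calls held whichever library was left out, and that of Cd2 ended without any 1 of the 6 (0.0532 to 0.129). Across the whole table limma called 518 genes (4.47%) at an adjusted p of 0.05, of which 246 (2.12%) were higher and 272 (2.35%) lower in scurfy. Scaling by library size alone, without the authors' factors, gave 930 calls (169 higher, 761 lower) and moved the median of all log2 fold changes by -0.14. Of 14 B cell markers 7 had a row, Cd79a, Ms4a1 and Pax5 not among them, and all 7 had negative log2 fold changes. Their summed level was 9895 to 11352 normalized counts in scurfy and 10971 to 11753 in wild type, almost all of it Ighm. The class II antigen gene H2-Aa fell, with 71.7 ± 13.6 in wild type and 6.82 ± 8.08 in scurfy (SD, n = 3 each). The H2-Aa call ended without wild-type library 2 or 3 (limma adjusted p = 0.0661 and 0.0706). Means of H2-Ab1 (20.5 in wild type, 1.61 in scurfy), H2-Eb1 (24.5 and 4.39) and Cd74 (33.6 and 16.4) were also lower, without overlap. These 3 did not pass (limma adjusted p = 0.0638, 0.0844 and 0.202), and the groups overlapped for Cd79b, Ighd and Ighm. Without overlap were thus 4 of the 7, against 27.1% of all genes. The 2 myeloid markers with a row of 10, Cst3 and Cd68, summed to 1463 to 1579 in scurfy and 850 to 1172 in wild type. Cst3 rose (log2 fold change 0.59, limma adjusted p = 0.0202), a call that ended without scurfy library 2 or 3 or wild-type library 2 (0.0562, 0.0514 and 0.0815), on library size alone (0.0529) and with a trend on transcript length removed (0.083). Of 7 erythroid markers Car2 had a row, at 101 to 156 in scurfy and 232 to 315 in wild type, and fell (-1.12, limma adjusted p = 0.0139), a call that ended without wild-type library 3 (0.0645). Of 5 CD4 T cell markers Il2ra had a row (33.8 to 106), and of 5 natural killer markers none. The part of such cells in the differences below was not tested.

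One of the 10 genes, the reader Ythdf2, differed between genotypes past the threshold, and it fell. Its mean was 73.1 ± 42.4 normalized counts over the scurfy libraries and 227 ± 54.8 over the wild-type ones (SD, n = 3 each), while its paralogs Ythdf1 and Ythdf3 did not pass. None of the 3 writers and neither eraser passed in limma, edgeR, DESeq2 or voom, and besides Ythdf2 an unadjusted p under 0.05 was found for Ythdc1 and Wtap, which makes 3 of 10 against 21.2% of all genes. That is 1 of 10 called, against 4.47% of all genes in either direction and 2.35% lower in scurfy. Of the 10 log2 fold changes 9 were below 0, with a median of -0.30, against 48.9% of all genes and a median of 0.01. Groups did not overlap for 3 members, Ythdf2, Ythdc1 and Mettl3, all lower in scurfy, against 27.1% of all genes in either direction and 13.7% lower in scurfy. In bulk libraries such as these, fewer cells of one kind and less RNA per cell cannot be told apart.

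**Figure D1:**
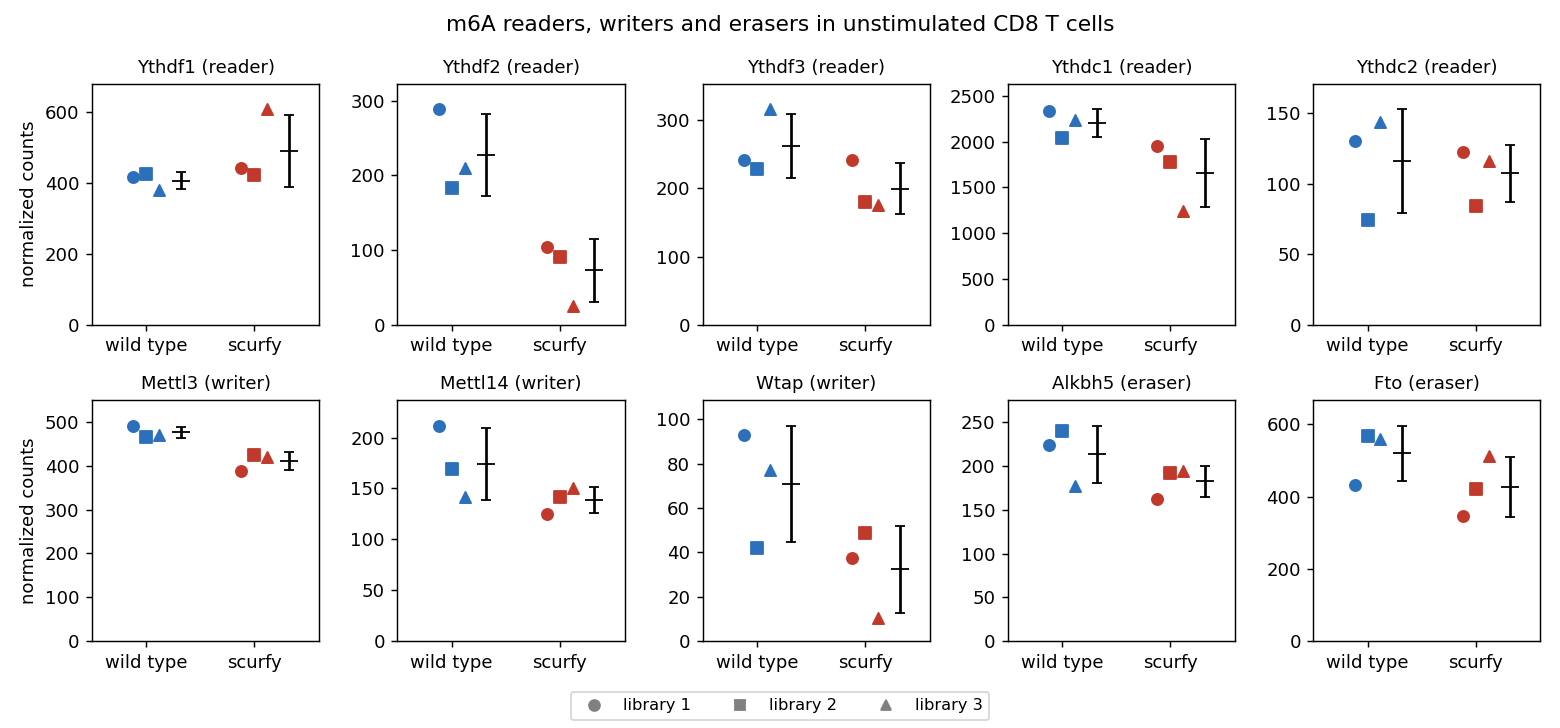
Normalized counts (linear axis from 0) of the 10 genes in each library, wild type in blue and scurfy in red, with circles, squares and triangles for libraries 1, 2 and 3 and a bar for the mean ± SD of 3 libraries. Ythdf2 separates the genotypes, with scurfy library 3 lowest at 24.8, and the same library is lowest for Ythdf3, Ythdc1 and Wtap and highest for Ythdf1.

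Ythdf2 (ENSMUSG00000040025, chromosome 4 in GENCODE M21) was at 288, 183 and 211 normalized counts in wild-type libraries 1, 2 and 3. In scurfy libraries 1, 2 and 3 it was at 104, 90.3 and 24.8. Every scurfy library lay below every wild-type library, and scurfy library 3 lay well below the other scurfy libraries. These values rest on 217, 378 and 251 reads in wild type and on 86, 74 and 21 in scurfy, and the exact Poisson 95% interval of the lowest was 15.4 to 37.9 normalized counts, which covers counting error only. The log2 fold change, scurfy minus wild type on log2(value + 1), was -1.83 (SE 0.44, 95% interval -2.80 to -0.87, limma adjusted p = 0.0393). That is 3.57-fold lower on the log scale, and the ratio of the group means was 3.11. By p it ranked 410 of the 11581 genes. EdgeR, DESeq2 and voom on the recovered reads each called Ythdf2 and no other member, with adjusted p of 0.0252, 0.000458 and 0.0236, where these tools called 4.71%, 8.9% and 4.77% of all genes tested. The authors' deposited values for Ythdf2, a log2 fold change of -1.63 and an adjusted p of 0.000458, were the same as those of DESeq2 here. They are thus no separate result, and 8.9% of the genes with a deposited adjusted p were under 0.05. Without scurfy library 3 the fall was 2.29-fold (log2 fold change -1.19, limma adjusted p = 0.027). The call ended without wild-type library 1, 2 or 3 (limma adjusted p = 0.133, 0.0683 and 0.112) and with a trend on transcript length removed (-1.80, adjusted p = 0.0594).

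The start regions of Ythdf2 and of its paralog Ythdf1, whose positive fold change did not pass, are shown to let their promoters be compared. Both come from RefSeq on GRCm38.p6 and run from 250 bases before to 50 bases after the gene's start, 5′ to 3′ on the gene's strand. Capitals mark matches on either strand to 4 motifs, namely the GC box GGGCGG, the Ets core CCGGAA, the CCAAT box CCAAT and the TATA box TATAAA, none of which overlapped another here.
Ythdf2, chr4:132212207-132212506, minus strand: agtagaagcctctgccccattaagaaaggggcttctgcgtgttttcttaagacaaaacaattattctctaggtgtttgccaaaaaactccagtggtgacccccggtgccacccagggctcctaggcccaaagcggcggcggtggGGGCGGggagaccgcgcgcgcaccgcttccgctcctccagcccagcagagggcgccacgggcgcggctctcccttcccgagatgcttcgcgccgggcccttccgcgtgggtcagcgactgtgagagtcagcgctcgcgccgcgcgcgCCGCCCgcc
Ythdf1, chr2:180920887-180921186, minus strand: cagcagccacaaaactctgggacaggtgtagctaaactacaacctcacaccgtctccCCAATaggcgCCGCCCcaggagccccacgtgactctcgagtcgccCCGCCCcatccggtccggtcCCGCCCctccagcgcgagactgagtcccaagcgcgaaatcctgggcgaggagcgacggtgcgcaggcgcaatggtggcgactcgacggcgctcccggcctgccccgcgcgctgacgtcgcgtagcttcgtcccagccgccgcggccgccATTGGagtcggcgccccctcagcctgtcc
The Ythdf2 window held 2 GC boxes and no match to the other 3 motifs. The Ythdf1 window held 3 GC boxes and 2 CCAAT boxes. Of the 32851 promoters in that table, 35.7% held a GC box, 37.4% a CCAAT box, 14.9% the Ets core and 13.6% the TATA box. Both windows were rich in CpG, with 32 such dinucleotides in Ythdf2 and 37 in Ythdf1 against a median of 7. GC content was 66.3% and 70.0%, against a median of 52.7%. A match describes the letters of the window and is not a measured site.

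Ythdf1 (ENSMUSG00000038848, chromosome 2), the paralog first linked to translation of methylated transcripts, was at 416, 424 and 380 normalized counts in wild-type libraries 1 to 3. It was at 443, 422 and 608 in scurfy libraries 1 to 3. Scurfy library 3 was the highest of the 6 and the other values overlapped. The log2 fold change was 0.25 (95% interval -0.09 to 0.60, limma adjusted p = 0.391). Without scurfy library 3 it was 0.09 (limma adjusted p = 0.796).

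Ythdf3 (ENSMUSG00000047213, chromosome 3), a paralog that works together with the others, was at 242, 228 and 316 in wild type and at 242, 181 and 175 in scurfy libraries 1 to 3. Scurfy library 1 lay inside the wild-type range and the other scurfy libraries below it. The log2 fold change was -0.39 (95% interval -0.82 to 0.04, limma adjusted p = 0.277).

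Whether the Ythdf2 difference exceeded that of its paralogs was asked within each library, where the scaling of the library cancels apart from the effect of the added 1. Log2(value + 1) of Ythdf2 minus that of Ythdf1 was -0.53, -1.21 and -0.85 in wild-type libraries 1 to 3 and -2.08, -2.21 and -4.56 in scurfy libraries 1 to 3. Against Ythdf3 the same quantity was 0.25, -0.32 and -0.58 in wild type and -1.21, -0.99 and -2.77 in scurfy. Neither quantity overlapped between genotypes. Both reuse the Ythdf2 values above, whose groups did not overlap either, so they are not separate support for its fall. The difference of the group means was -2.09 against Ythdf1 and -1.44 against Ythdf3, each with p = 0.1 in an exact two-sided permutation test, the smallest value possible with 3 libraries a group, and 0.1 after adjustment over the 2 tests. Without scurfy library 3 these differences were -1.28 and -0.89.

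Ythdf2 held a smaller share of the reads of the 3 paralogs in scurfy. Its share was 30.5%, 21.9% and 23.2% in wild-type libraries 1 to 3 and 13.2%, 13.0% and 3.07% in scurfy libraries 1 to 3. The Wilson 95% interval of the highest scurfy share was 10.8% to 16.0%, below each of the wild-type shares and their intervals. These intervals cover counting error only, not the spread between libraries. Ythdf1 held 45.6% ± 4.65 in wild type and 64.1% ± 9.95 in scurfy (SD, n = 3 each), and Ythdf3 29.2% ± 4.91 and 26.1% ± 4.50. The summed level of the 3 paralogs was 896 ± 56.3 normalized counts in wild type and 763 ± 61.4 in scurfy. These shares restate the values above and were not tested separately.

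**Figure D2:**
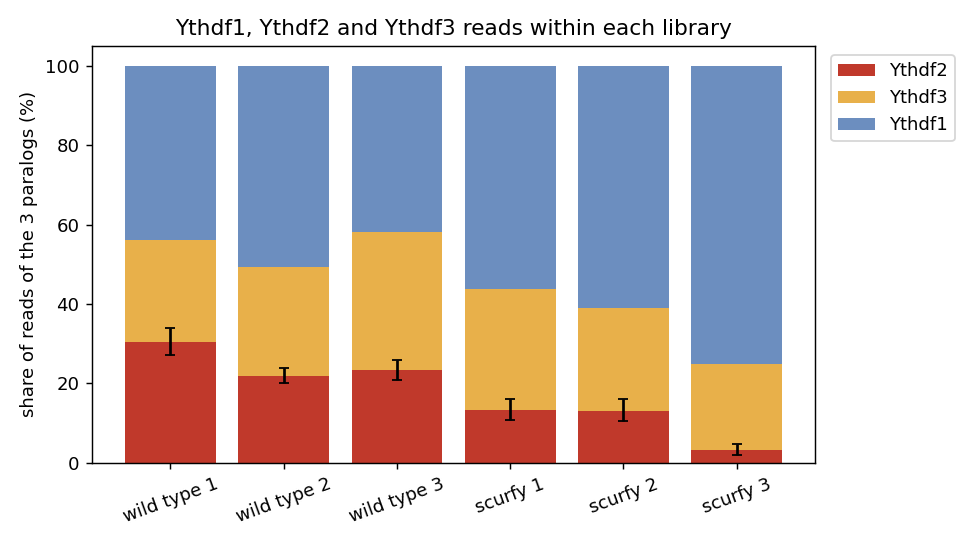
Share of the reads of Ythdf1, Ythdf2 and Ythdf3 taken by each paralog, in percent, in each of the 6 libraries. Wilson 95% intervals on the Ythdf2 share cover counting error only. The Ythdf2 share lies at 21.9% to 30.5% in wild type and at 3.07% to 13.2% in scurfy.

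The nuclear reader Ythdc1 (ENSMUSG00000035851, chromosome 5) was the most abundant member by normalized counts. It was at 2329, 2040 and 2238 in wild-type libraries 1 to 3 and at 1950, 1774 and 1240 in scurfy libraries 1 to 3. The groups did not overlap, yet the difference did not pass, with a log2 fold change of -0.44 (SE 0.15, 95% interval -0.75 to -0.13, limma adjusted p = 0.0999). On library size alone it was -0.57 and passed (adjusted p = 0.031). Without scurfy library 3 it was -0.24 (adjusted p = 0.254). In GENCODE M21 an exon of Ythdc1 overlaps an exon of another gene model, Gm43055, on the same strand.

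Ythdc2 (ENSMUSG00000034653, chromosome 18), an RNA helicase known from the mouse germ line, was at 130, 74.4 and 144 normalized counts in wild type and at 122, 84.2 and 116 in scurfy libraries 1 to 3. The groups overlapped fully. Its log2 fold change of -0.07 had a 95% interval of -0.69 to 0.54 (limma adjusted p = 0.911), and its sign depended on the processing.

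Mettl3 (ENSMUSG00000022160, chromosome 14) was the steadiest member, with a coefficient of variation of 2.69% in wild type and 4.98% in scurfy. It was at 490, 466 and 471 normalized counts in wild-type libraries 1 to 3 and at 387, 425 and 421 in scurfy libraries 1 to 3. The groups did not overlap, but the log2 fold change was -0.21 and did not pass (SE 0.14, 95% interval -0.50 to 0.08, limma adjusted p = 0.397). An exon of Mettl3 overlaps an exon of Tox4 on the opposite strand, and no source used here says whether reads were assigned by strand, so its count may include some of Tox4.

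Mettl14 (ENSMUSG00000028114, chromosome 3), the partner of METTL3, was at 211, 169 and 142 in wild type and at 125, 142 and 150 in scurfy libraries 1 to 3. The groups overlapped, with a log2 fold change of -0.31 (95% interval -0.78 to 0.16, limma adjusted p = 0.446). Log2(value + 1) of Mettl14 minus that of Mettl3 averaged -1.46 ± 0.26 in wild type and -1.56 ± 0.07 in scurfy, a balance within the spread of the libraries.

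Wtap (ENSMUSG00000060475, chromosome 17), the adaptor subunit, had the lowest level of the 10 and the most negative fold change after Ythdf2. It was at 93.0, 42.0 and 77.2 normalized counts in wild-type libraries 1 to 3 and at 37.5, 48.8 and 10.6 in scurfy libraries 1 to 3. Wild-type library 2 fell inside the scurfy range, and scurfy library 3, with 9 reads, was the lowest (exact Poisson 95% interval 4.86 to 20.2 normalized counts). The log2 fold change was -1.27 and did not pass (SE 0.50, 95% interval -2.35 to -0.20, limma adjusted p = 0.16). Without scurfy library 3 it was -0.64.

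The eraser Alkbh5 (ENSMUSG00000042650, chromosome 11) was at 223, 239 and 177 normalized counts in wild type and at 162, 192 and 194 in scurfy libraries 1 to 3. The groups overlapped, with a log2 fold change of -0.22 (95% interval -0.64 to 0.20, limma adjusted p = 0.566).

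Fto (ENSMUSG00000055932, chromosome 8), the other eraser, which also acts on the methylated cap-adjacent adenosine, was at 432, 567 and 559 in wild type and at 346, 420 and 512 in scurfy libraries 1 to 3. The groups overlapped again, with a log2 fold change of -0.29 (95% interval -0.66 to 0.07, limma adjusted p = 0.344). Exons of Fto overlap those of 2 gene models on the opposite strand. Log2(value + 1) of Alkbh5 minus that of Fto was -1.28 ± 0.35 in wild type and -1.20 ± 0.17 in scurfy, so the level of one eraser relative to the other differed by less than the spread between libraries.

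**Figure D3:**
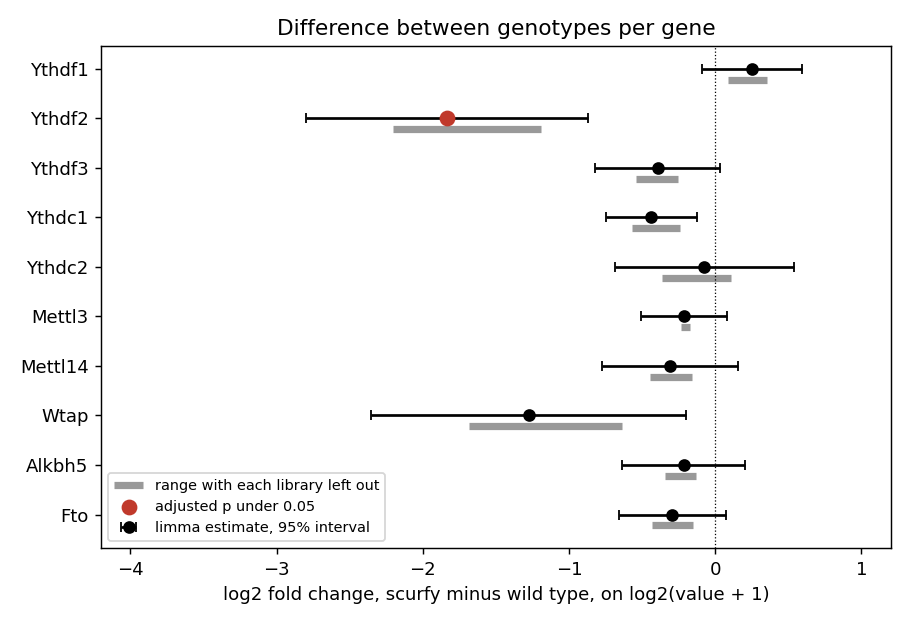
Log2 fold change, scurfy minus wild type on log2(value + 1), of each of the 10 genes, with limma's 95% interval in black, the range over fits that leave out 1 library in grey, and a red point where the adjusted p was under 0.05. Ythdf2 at -1.83 is the red point, Wtap at -1.27 has the widest interval, and only Ythdf1 lies above 0.

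The merged exons of the members ran from 3316 bases for Ythdf1 to 13651 for Ythdc1, against a median of 4075 over the genes matched to GENCODE M21. The 6589 genes in that length range had a median log2 fold change of -0.03, 54.3% of them were below 0, and 183 (2.78%) fell. With the length trend removed the median of the 10 members was -0.20 and 8 of 10 were below 0, Ythdc2 moving to 0.02. Ythdc1 was then at -0.31 and Fto at -0.17.

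The libraries were primed from oligo-dT, and whether their reads scale with exon length was not tested. The merged exons also include those of rare isoforms. The order per kilobase below therefore describes this quotient and does not rank transcript levels. Per kilobase of merged exon, wild-type levels in normalized counts were highest for Ythdc1 (161 ± 10.8), followed by Ythdf1 (122.7 ± 7.08) and Mettl3 (93.8 ± 2.53; SD, n = 3 each). Ythdf2 (49.7 ± 12), Ythdf3 (48.8 ± 8.77), Fto (39.9 ± 5.81) and Alkbh5 (35.6 ± 5.39) came next, and each overlapped its neighbour in this order. Mettl14 followed at 23.4 ± 4.73, and Ythdc2 (13.1 ± 4.13) and Wtap (11.3 ± 4.18) came last and overlapped each other. In scurfy Ythdf2 stood 8th in this order, at 16.0 ± 9.27 per kilobase, overlapping both Mettl14 (18.7 ± 1.74) and Ythdc2 (12.1 ± 2.30). Ythdf1 (148 ± 30.6) and Ythdc1 (121 ± 27.1) headed the scurfy order and overlapped. The order depends on the division by length, for without it Ythdc1 led Ythdf1 in scurfy, with means of 1655 and 491 normalized counts.

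Which other transcripts followed the Ythdf2 profile was asked over the 9187 other genes with a mean of at least 50 normalized counts. Likeness was the root mean square difference between log2(value + 1) profiles over the 6 libraries, each centred on its gene mean. The closest were Kdm1b, a histone demethylase gene, at 0.22, Ptges3, a co-chaperone gene, at 0.33, Kansl1l at 0.37 and 2510046G10Rik at 0.38. The writer subunit Wtap came at rank 5, also at 0.38. Each of these 5 was lowest in scurfy library 3, Kdm1b at 22.5 normalized counts and Ptges3 at 16.5. Ythdf2 was lowest there too, and the choice by likeness to it favoured such genes, so the shared low is no separate result. Of the 5, Kdm1b alone passed (log2 fold change -1.62, limma adjusted p = 0.0282), and its call ended without scurfy library 3 or wild-type library 1, 2 or 3 (0.0597, 0.0947, 0.051 and 0.105). Among the other members Ythdc1 came next, at rank 429 with 0.84, and Ythdf1 stood far down at rank 8024 with 1.33. Profiles over 6 libraries in 2 groups share their libraries and their depth, and the ranks are a description.

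**Figure D4:**
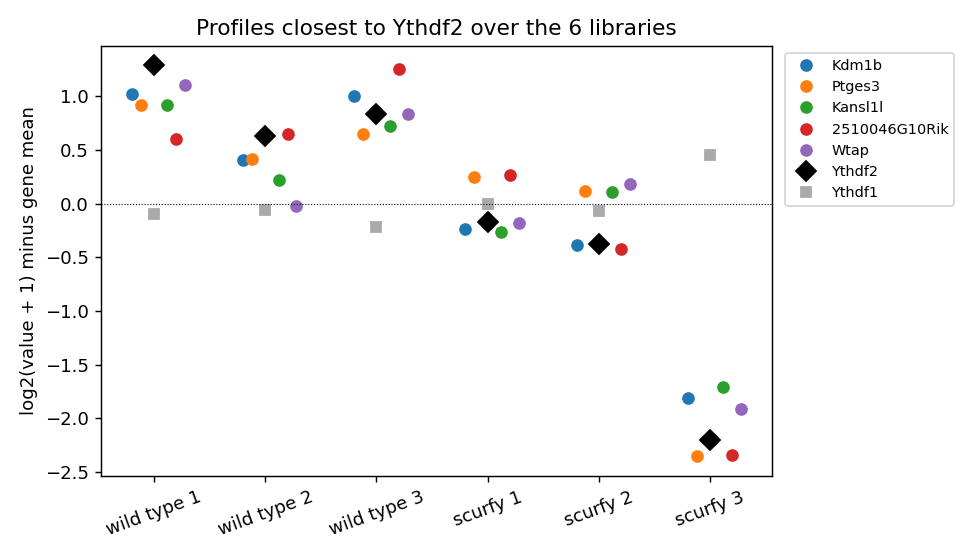
Log2(value + 1) minus the gene's mean in each of the 6 libraries for Ythdf2 (black diamonds), the 5 genes with the closest profile (coloured circles) and Ythdf1 (grey squares). Ythdf2 and all 5 neighbours, which were chosen for their likeness to it, are lowest in scurfy library 3, where Ythdf1 is highest.

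Genes around the members came from 7 lists, chosen with earlier results of these data known, that together held 74 distinct genes with a row. Of these, 7 fell, none rose and 67 did not pass. That is 9.46% called, against 4.47% of all genes in either direction and 2.35% lower in scurfy. The median log2 fold change of the 74 was -0.11, and groups did not overlap for 25 of them (33.8%, against 27.1% of all genes). An unadjusted p under 0.05 was found for 5 with higher and 18 with lower values in scurfy, against 21.2% of all genes in either direction. EdgeR, DESeq2 and voom called 9, 13 and 9 of the 74, none higher, against 4.71%, 8.9% and 4.77% of all genes tested. The limma count was 0 if wild-type library 3 was left out, 1 if scurfy library 3 was, and 3 if either library 2 was. With the length trend removed it was 4.

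Of 23 genes of the decay machinery to which YTHDF2 hands RNA, 3 fell, none rose and 20 did not pass, with a median of -0.04. Over all genes 2.35% fell and 2.12% rose, and the counts of each list below stand against the same shares. Cnot6, a catalytic deadenylase of CCR4-NOT, was at 897, 884 and 1108 normalized counts in wild type and at 616, 637 and 541 in scurfy libraries 1 to 3 (log2 fold change -0.68, SE 0.13, limma adjusted p = 0.014). Tob1, which links CCR4-NOT to its targets, was at 642, 745 and 761 in wild type and at 381, 550 and 351 in scurfy (-0.77, SE 0.17, adjusted p = 0.0221). Xrn1, the exonuclease that degrades decapped RNA and the one gene with a row of 4 listed YTHDC2 partners, was at 730, 582 and 760 in wild type and at 455, 444 and 422 in scurfy (-0.64, SE 0.14, adjusted p = 0.0231). In none of these 3 genes did the groups overlap, which held for 6 of the 23 against 27.1% of all genes. The Cnot6 call ended without wild-type library 3 (adjusted p = 0.0645). That of Tob1 ended without scurfy library 1 or 3 or wild-type library 2 or 3 (0.0584, 0.0643, 0.0744 and 0.0823). That of Xrn1 ended without scurfy library 2 or 3 or wild-type library 1 or 3 (0.0648, 0.0552, 0.0727 and 0.0894), and with the length trend removed (0.0977). Cnot1, the scaffold that YTHDF2 contacts and named here after its value was seen, was at -0.01 (limma adjusted p = 0.976).

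Of 14 writer partners, other RNA methyltransferases and enzymes of the methyl donor, 1 fell and 13 did not pass, with a median of 0.07. Mat2b, the regulatory subunit of the enzyme that makes S-adenosylmethionine, was at 1040, 1219 and 1240 normalized counts in wild type and at 914, 560 and 509 in scurfy libraries 1 to 3 (log2 fold change -0.86, SE 0.18, limma adjusted p = 0.019). The groups did not overlap, and the call ended without scurfy library 2 or 3 or wild-type library 2 or 3 (adjusted p = 0.0685, 0.0536, 0.0639 and 0.0788). Mat2a, its catalytic subunit, named after its value was seen, had the opposite sign at 0.35 and did not pass (adjusted p = 0.159). The writer-associated subunits Virma, Zc3h13, Rbm15, Rbm15b and Cbll1, also named after their values were seen, lay between -0.30 and 0.14, and none passed.

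Of 14 other proteins reported to bind m6A RNA, 1 fell and 13 did not pass, with a median of -0.17. Elavl1, which stabilises AU-rich messenger RNA, was at 603, 724 and 684 normalized counts in wild type and at 503, 384 and 493 in scurfy libraries 1 to 3 (log2 fold change -0.55, SE 0.15, limma adjusted p = 0.0478). The groups did not overlap, yet the call ended whichever 1 library was left out, with adjusted p of 0.058 to 0.169. It also ended with the length trend removed (0.109). Of 7 nuclear partners of YTHDC1, 1 fell and 6 did not pass, with a median of -0.35. Zfc3h1, which helps send nuclear RNA to the exosome, was at 290, 278 and 313 in wild type and at 180, 183 and 118 in scurfy libraries 1 to 3 (-0.89, SE 0.21, adjusted p = 0.0266). Its call ended without scurfy library 3 or any wild-type library (0.0687, 0.0644, 0.0683 and 0.0933) and with the length trend removed (0.053).

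Of 6 genes around the m6A-dependent SOCS transcripts, 1 fell and 5 did not pass, with a median of -0.09. Socs1, an inhibitor of cytokine signalling, was at 2350, 2257 and 2770 normalized counts in wild type and at 1991, 1705 and 1254 in scurfy libraries 1 to 3 (log2 fold change -0.60, SE 0.15, limma adjusted p = 0.0368). The groups did not overlap, and the call ended when any library other than scurfy library 1 was left out (adjusted p = 0.0683 to 0.13). Socs3 was at 0.24 and Cish at 0.23, both named after their values were seen, and neither passed (adjusted p = 0.551 and 0.789). None of 10 relatives of the erasers, the other ALKBH enzymes and the TET enzymes of DNA, passed in limma, 3 having an unadjusted p under 0.05, and edgeR, DESeq2 and voom each called 1, Tet3. Tet3 at -0.49 (limma adjusted p = 0.0523) and Alkbh3 at 0.41 (0.171) were closest.

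**Figure D5:**
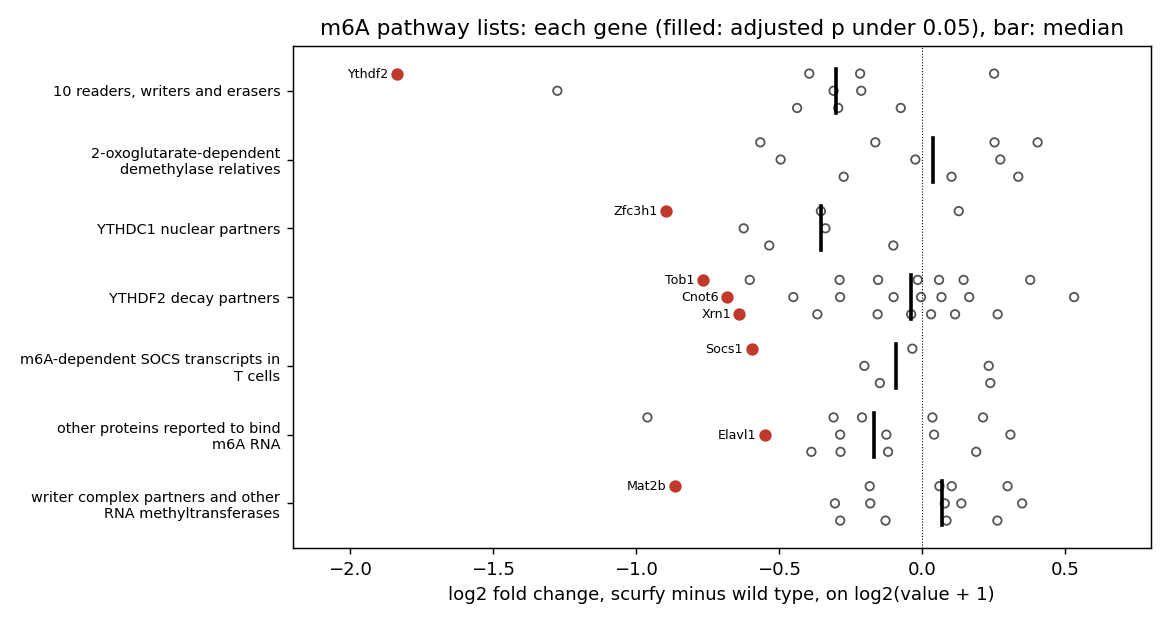
Log2 fold change, scurfy minus wild type on log2(value + 1), of each gene of the 10 members and of 6 lists around them, filled red where the adjusted p was under 0.05, with a bar at the median of each list. All filled points lie below 0, and Ythdf2 at -1.83 lies farthest from it.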

How the data were processed

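Messenger RNA of purified CD8 T cells was sequenced. Per the labels' protocols, poly-A RNA was primed with indexed poly-dT oligos, amplified through in vitro transcription and sequenced on an Illumina instrument. Trim Galore 0.4.4, STAR 2.6, featureCounts, build NCBIM37, DESeq2 and edgeR are listed, with no roles, per the submitters' processing notes. Of 2 deposited tables with identical content, both naming the 6 unstimulated libraries, 1 was used. The deposited signal of a gene is its reads after division by each library's factor. Dividing by the step of 1 read gave whole reads for all values to within 0.01 read. The authors' own log2 fold change, test score and p-value stand in the deposited table too. For the members the deposited log2 fold changes and p-values matched those of the DESeq2 run. The smallest mean value is 7.10, so the table leaves out low genes under an unstated rule, and the level of a gene without a row is unknown.

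Log2(value + 1) of all genes was tested with limma 3.58.1 (R 4.3.3), using a variance trend, robust moderation and Benjamini-Hochberg adjustment at 0.05, over 6 libraries and no covariate. The added 1 shrinks changes of low genes, which for Ythdf2 was slight (-1.85 with 0.5 added, -1.75 with 5). The limma fold changes were not smaller than those of the count tools. EdgeR and DESeq2 gave -1.63 for Ythdf2 and -1.12 for Wtap, against -1.83 and -1.27 in limma. EdgeR 4.0.16, DESeq2 1.42.0 and voom on recovered reads were alternatives, as were other pseudocounts (0.5, 5), a filter at a mean of 50, other scalings, no robust moderation, each library left out, the replicate number as a block, and a lowess length trend removed (11571 genes matched to GENCODE M21). The limma step was run on simulated counts to check the code. These had the same dispersion for all genes, so that run says nothing about the calls made here. At this depth 3 reads are 1.45 to 3.99 normalized counts. Intervals on reads cover counting error only.

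The members and lists were chosen with earlier results of these data known. All 10 members are described, with up to 4 genes past the threshold per list, otherwise the 2 with the smallest p, and the 5 genes with the profile closest to the member of smallest p. Coordinates of promoters are on GRCm38.p6 and were not joined to the submitters' build. Promoter sequences were matched by symbol for 7 of the 10 members.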

Additional observations from a re-analysis of the deposited data

How the results depend on the processing

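The fall of Ythdf2 kept its direction in every fit run, and its log2 fold change lay between -2.21 and -1.19 over the fits that left out 1 library. Its call held with both other pseudocounts, the filter at a mean of 50, both other scalings, edgeR, DESeq2, voom, no robust moderation and the replicate block. The call ended with the length trend removed (-1.80, limma adjusted p = 0.0594) and held with that and the block (0.0375). It ended without wild-type library 1, 2 or 3 (0.133, 0.0683 and 0.112) and held without scurfy library 1, 2 or 3 (0.0203, 0.0462 and 0.027). Ythdc1 passed on library size alone (-0.57). The sign of Ythdc2, which no fit called, turned with voom (0.0501) and with the length trend removed, without and with the block (0.0241 in both), and it ranged from -0.36 to 0.11 with 1 library left out. Of all genes 518 were called, against 930 on library size alone, 891 in DESeq2, 302 with the length trend removed, 103 with that and the replicate block, and 113 to 403 with 1 library left out. Of the 74 pathway genes 7 were called, against 11 after the filter at a mean of 50, 16 on library size alone, 13 in DESeq2, 4 with the length trend removed, 1 with that and the block, and 0 to 5 with 1 library left out. The cause of these shifts was not tested. Ythdf2 against Ythdf1 and Ythdf3 ranged from -2.52 to -1.28 and from -1.77 to -0.89 with 1 library left out.

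Same-numbered libraries did not deviate together (correlations of deviations -0.03, -0.07 and -0.15), and pairs of unlike number ranged from -0.12 to 0.16. With so few libraries this cannot tell whether a number marks a shared animal or day, and the labels do not say. With the replicate number as a block 372 genes were called in all, 5 of the 74 pathway genes, and Ythdf2 (log2 fold change -1.83, limma adjusted p = 0.017). The blocked calls of Socs1 and Elavl1 ended (adjusted p = 0.061 and 0.0759). The paired differences of Ythdf2 against Ythdf1 and Ythdf3 were -2.09 and -1.44, with an exact sign-flip permutation p = 0.25, the smallest that 3 pairs allow. Wtap and Ythdf2 in scurfy library 3 rest on 9 and 21 reads, where depth limits precision.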
